A study of Mus musculus with 22 samples.

Results

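The neurexin genes Nrxn2 and Nrxn3 and the neuroligin genes Nlgn1 and Nlgn2 were followed through maps of open chromatin from hippocampus and frontal cortex of mice. The members were chosen by name, and a peak was counted for a gene where its summit lay in the GRCm38 gene body or within 10 kb of it. They are 4 of 49939 genes in the gene table. Between 405 and 543 peaks per library fell to them, of 243443 to 352369 in all, which is 0.142% to 0.175%. Placed on windows of about 0.5 kb shared by all libraries, they held 1033 of 563375 windows. The flanks also reach other genes: Rasgrp2, Gm14965, Gm52381 and Slc22a12 at Nrxn2, Gm40537 at Nrxn3, Gm6197 and A830092H15Rik at Nlgn1, and Gm39566, Spem1, Spem2, Tmem256 and Plscr3 at Nlgn2.

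Neurexins are adhesion proteins of the presynaptic membrane, and neuroligins are among their ligands on the postsynaptic side. The pair links the membranes across the synaptic cleft and helps to set how a synapse is built and how it signals. Neurexin genes have more than one promoter and make a long alpha form and a shorter beta form from a start further downstream, and their transcripts are spliced in many ways. Neuroligin 1 is found mainly at excitatory synapses and neuroligin 2 mainly at inhibitory ones.

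The animals, adult wild-type males of the C57BL/6J strain, model Gulf War Illness. Every animal, controls included, had corticosterone in its drinking water for 7 days, diisopropyl fluorophosphate (DFP, an organophosphate that blocks cholinesterases) on day 8, and intermittent corticosterone over 5 weeks. The final challenge was saline or lipopolysaccharide (LPS, a bacterial wall component that starts inflammation), and OMNI-ATAC-seq, which cuts and tags accessible DNA with a transposase, gave 22 libraries from 11 animals, 1 per tissue and animal. Each tissue has saline libraries from the 2 animals numbered 2 and 3, both taken at 6 h, and LPS libraries from the 3 animals numbered 1, 3 and 4 at every time, which was 6, 12 or 24 h. LPS and the time of collection cannot be told apart at 12 and 24 h, and no group without corticosterone and DFP was analysed here, so nothing below describes the effect of that exposure.

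The tissue labels were checked on marker genes. The peaks at 6 hippocampal markers (Prox1, Zbtb20, Wfs1, Calb1, Lct, Tdo2) summed to 66.5 to 88.6 per 100000 peaks of the library in hippocampus and to 37.4 to 47.3 in frontal cortex. Those at 5 cortical markers (Rorb, Fezf2, Tbr1, Cux2, Foxp2) summed to 33.9 to 39.9 in hippocampus and 49.7 to 57.4 in frontal cortex. Neither pair of ranges overlapped, and every one of these markers had a peak in every library. Peak lists give no read depth, so a missing peak can be a closed site or a shallow library, and in bulk tissue fewer cells of a type and less open chromatin per cell cannot be told apart.

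The transcription starts of these genes were open to very different degrees. RefSeq (GRCm38.p6) lists 6 promoter sequences for 3 of the 4 genes, each with 250 bases before and 50 after the start: 2 for Nlgn1, 1 for Nlgn2 and 3 for Nrxn3. Of these, 4 are shown because they span the range of openness measured here, from the start that ranks highest to the start with no peak in any library. They read from 5′ to 3′ on the strand of the gene, and capitals mark CG dinucleotides, the sites of DNA methylation in mammals.
Nrxn3, start 1089.8 kb into the gene (chr12:89812233-89812532, plus strand): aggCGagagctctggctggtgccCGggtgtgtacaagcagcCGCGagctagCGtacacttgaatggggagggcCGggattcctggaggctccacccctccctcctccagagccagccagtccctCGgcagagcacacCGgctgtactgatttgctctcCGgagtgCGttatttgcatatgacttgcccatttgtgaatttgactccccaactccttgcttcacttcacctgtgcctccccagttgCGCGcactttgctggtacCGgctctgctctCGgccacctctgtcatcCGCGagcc
Nlgn2, start of the gene (chr11:69837735-69838034, minus strand): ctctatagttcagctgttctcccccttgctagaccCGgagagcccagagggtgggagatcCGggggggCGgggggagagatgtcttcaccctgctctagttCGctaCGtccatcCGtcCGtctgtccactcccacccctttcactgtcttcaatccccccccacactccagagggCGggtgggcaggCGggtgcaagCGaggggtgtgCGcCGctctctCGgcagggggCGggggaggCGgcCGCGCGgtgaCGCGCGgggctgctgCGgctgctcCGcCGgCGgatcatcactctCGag
Nlgn1, start 1.0 kb into the gene (chr3:26331860-26332159, minus strand): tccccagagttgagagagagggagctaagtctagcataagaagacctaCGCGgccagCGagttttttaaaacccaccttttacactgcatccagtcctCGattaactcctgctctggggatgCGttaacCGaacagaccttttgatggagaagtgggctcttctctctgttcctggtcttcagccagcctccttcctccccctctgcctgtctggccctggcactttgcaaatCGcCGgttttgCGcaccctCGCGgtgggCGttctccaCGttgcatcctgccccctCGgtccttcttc
Nrxn3, start 71.8 kb into the gene (chr12:88794254-88794553, plus strand): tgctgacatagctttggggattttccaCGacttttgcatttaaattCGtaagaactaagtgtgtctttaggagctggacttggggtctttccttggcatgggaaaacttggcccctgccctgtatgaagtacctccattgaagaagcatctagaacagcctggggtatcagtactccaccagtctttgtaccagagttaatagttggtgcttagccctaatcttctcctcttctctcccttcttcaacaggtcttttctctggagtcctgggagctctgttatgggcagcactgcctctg

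The downstream Nrxn3 start was the most open of the 6. Peaks were ranked within each library by their deposited -log10 q, so that 0% is the strongest, and the peak over this start ranked at 1.25% to 3.07% in the 11 hippocampus libraries (median 1.66%) and at 1.39% to 4.24% in the 11 frontal cortex libraries (median 2.24%). The Nlgn2 start came next, at 1.87% to 4.53% in hippocampus (median 3.38%) and 3.48% to 5.71% in frontal cortex (median 4.22%). The ranges of the tissues overlapped at both starts. The first Nlgn1 start ranked at 15.2% to 23.9% in hippocampus and 14.9% to 32.5% in frontal cortex, and the second Nlgn1 start, 178.9 kb into the gene, at 25.6% to 48.5% and 14.9% to 57.2%. The Nrxn3 start at 230.7 kb had a peak in all 22 libraries as well, at ranks from 10.9% to 45.9%. In contrast, the Nrxn3 start at 71.8 kb had a peak in 0 of 22 libraries, although the window at the start of the Nrxn3 gene body itself (chr12:88722641-88723141) had one in all 22, at a median rank of 6.9%. Nrxn2 has no listed promoter, and the window nearest its gene start (chr19:6418451-6418951) was present in all 22 libraries at a median rank of 6.78%.

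**Figure D1:**
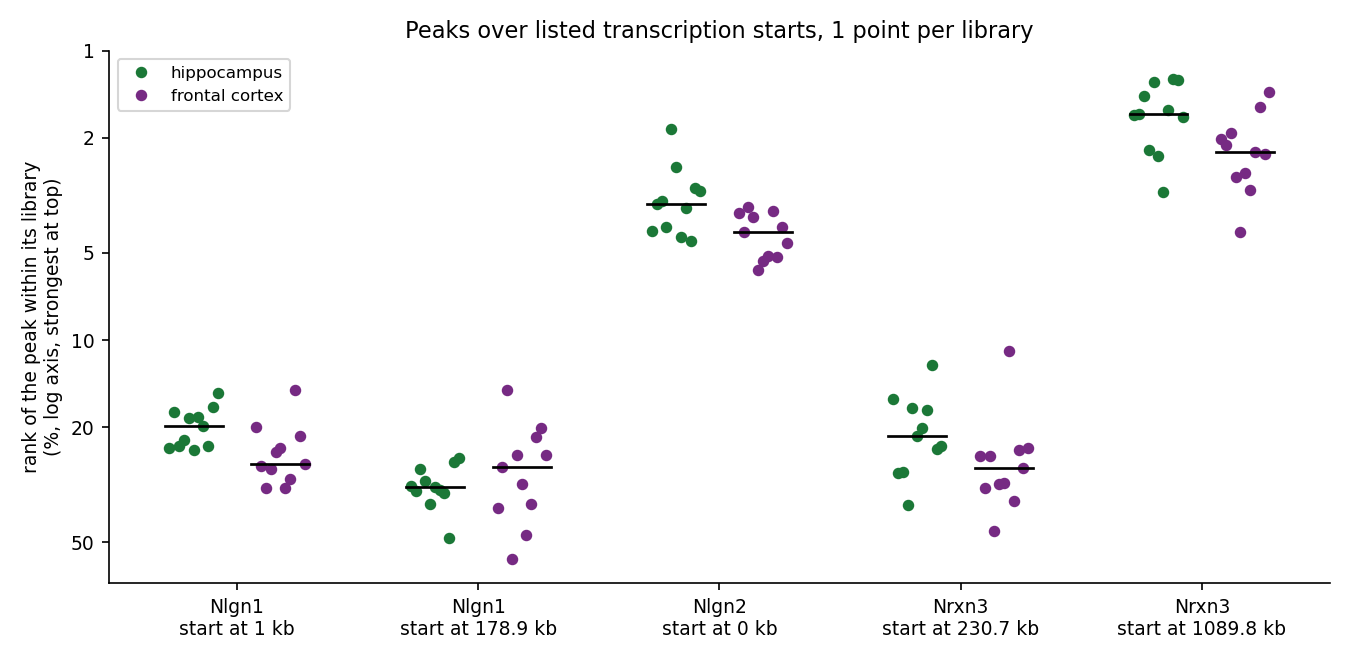
Rank of the peak over each listed transcription start (vertical, percent, log axis with the strongest peaks at the top) by start (horizontal), 1 point per library and a bar at the median of each tissue. The Nrxn3 start at 1089.8 kb and the Nlgn2 start lie above the other 3 in every library, and the tissues overlap at all 5.

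CG content followed the order of the peaks only in part. The Nlgn2 promoter holds 26 CG dinucleotides, the downstream Nrxn3 promoter 16, the first Nlgn1 promoter 14 and the Nrxn3 promoter without a peak 2, against a median of 7 over all 32851 listed promoters. The Nrxn3 promoter at 230.7 kb and the second Nlgn1 promoter each hold 6 and still had a peak in every library. Both strands were searched for the promoter motifs TATAAA (which places the start at many genes) and CCAAT (bound by the factor NF-Y). They were also searched for GGGCGG (the GC box), for TGACGTCA (the cyclic AMP response element), for TGANTCA (the AP-1 site), for CANNTG (the E-box) and for the NF-kB consensus. GGGCGG occurred 3 times in the Nlgn2 promoter and once in the Nrxn3 promoter at 230.7 kb, and 35.7% of all promoters hold it. CANNTG occurred 5 times in the downstream Nrxn3 promoter and once each in those of Nlgn2 and of Nrxn3 at 230.7 kb, and 72.3% of all promoters hold it. TGANTCA was found once, in the Nrxn3 promoter at 230.7 kb (7.81% of all promoters), CCAAT once, in the second Nlgn1 promoter (37.4%), and the NF-kB consensus once, in the Nrxn3 promoter with no peak (4.51%). TATAAA (13.6%) and TGACGTCA (1.79%) had no match in the 6. These are matches of letters, not measured binding sites.

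At Nrxn2 and Nlgn1 some open sites outside the starts ranked ahead of them, and at Nrxn3 some ranked close behind the downstream start. At Nrxn3 the windows present in all 22 libraries with the best median ranks, after the downstream start, were chr12:88713386-88713886 in the upstream flank (2.17%), chr12:89129467-89129967 at 407 kb (3.25%) and chr12:89710489-89710989 at 988 kb (3.77%). At Nlgn1 the best was chr3:25903074-25903574, 429.5 kb into the gene, at 3.91%, ahead of both listed starts. At Nrxn2 it was chr19:6464703-6465203, 46.2 kb into the gene, at 4.54%, ahead of the gene start. At Nlgn2 the best windows were the pair at the gene start, which lie under the same peak, at 3.91%. Its other window present in all 22 libraries, chr11:69846311-69846811 in the upstream flank, ranked behind them at 6.99%. In all, 20 of 65 windows of Nrxn2 (30.8%), 90 of 587 of Nrxn3 (15.3%), 40 of 362 of Nlgn1 (11%) and 3 of 19 of Nlgn2 (15.8%) were present in every library, against 18.4% of all windows.

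Nrxn3 held sites open in one tissue and not detected in the other, in both directions and along its whole length. A window was tested where it was present in 2 to 20 libraries, by Fisher's exact test between 11 hippocampus and 11 frontal cortex libraries with Benjamini-Hochberg adjustment over all 327334 windows tested. Of 344 tested windows of Nrxn3, 51 (14.8%) were present more often in hippocampus and 44 (12.8%) more often in frontal cortex, where 18.3% and 12.2% of all tested windows were called in those directions. Both shares lie near or below these backgrounds, so the number of tissue sites does not set Nrxn3 apart. With the animal as a block (an exact sign test over animals) the counts were 30 and 28, where this test called 12.8% and 8.14% of all tested windows. In Nrxn3, 9 windows (2.62%) had a peak in 11 of 11 hippocampus libraries and 0 of 11 frontal cortex libraries, and 9 others (2.62%) the reverse, against 4.22% and 2.34% of all tested windows.

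Among these all-or-none windows of Nrxn3, the hippocampal ones with the best ranks were chr12:90041854-90042354 at 1319 kb (median rank 14.6%), chr12:90218910-90219410 at 1496 kb (16%) and chr12:89460588-89461088 at 738 kb (17.3%). Each had a peak in all 11 hippocampus libraries and in 0 of 11 frontal cortex libraries (Fisher's exact test, adjusted p = 4.32e-05, the lowest value that this design gave at these genes). The best-ranked cortical one, chr12:89284321-89284821 at 562 kb, ranked at 6.82% and showed the reverse, with the same adjusted p by Fisher's exact test. Opposite sites could be neighbours: chr12:88903432-88903932 was present in hippocampus only and chr12:88904336-88904836, 904 bp away, in frontal cortex only. Likewise chr12:89973720-89974220, present in frontal cortex only, lay between hippocampal windows 6353 bp before it and 5424 bp after it. These pairs were picked out after the values were seen. In bins of 200 kb from the gene start to 1600 kb, both kinds of window occurred in every bin, with 2 to 12 hippocampal and 4 to 9 cortical windows per bin.

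**Figure D2:**
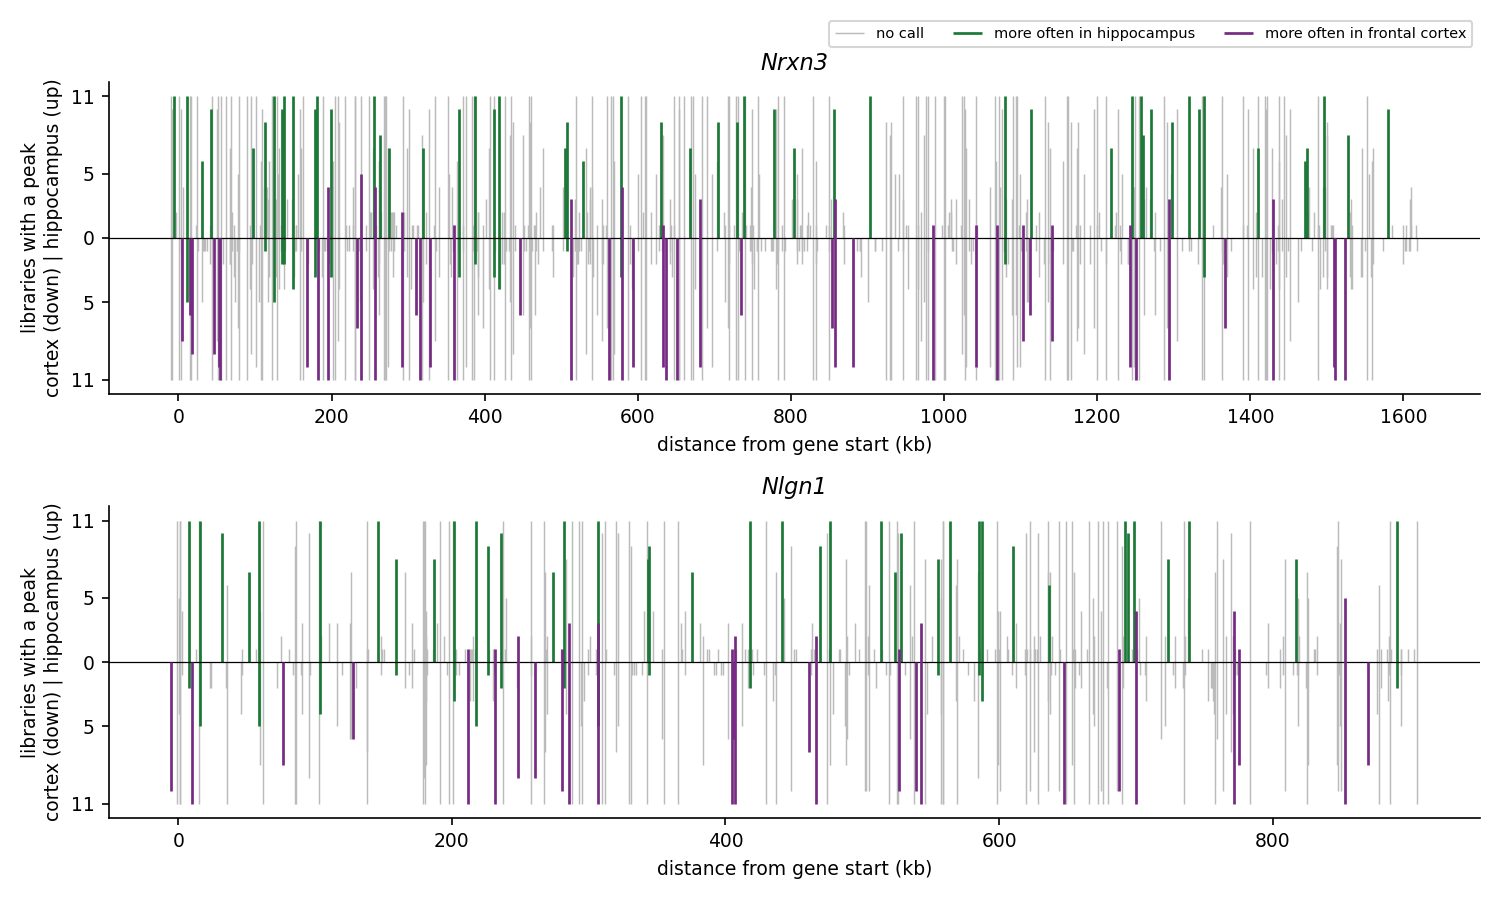
Number of libraries with a peak in each window of Nrxn3 (top) and Nlgn1 (bottom) against distance from the gene start (kb), with hippocampus drawn upward and frontal cortex downward, 11 libraries each. Green lines are windows called towards hippocampus, 51 in Nrxn3 and 39 in Nlgn1, purple lines those called towards frontal cortex, 44 and 26, and both are spread along the genes.

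At Nlgn1 more windows were called towards hippocampus than towards frontal cortex, as over the genome. Of 213 tested windows, 39 (18.3%) were present more often in hippocampus and 26 (12.2%) more often in frontal cortex, the same shares as over all windows. In all, 8 windows (3.76%) were in all 11 hippocampus libraries and no frontal cortex library, and 2 (0.939%) showed the reverse, against 4.22% and 2.34% of all tested windows. With the animal as a block, 26 and 18 windows were called, where this test called 12.8% and 8.14% of all tested windows. Of the 8, those with the best ranks were chr3:25633762-25634262 at 699 kb (28.3%) and chr3:25593704-25594204 at 739 kb (31.3%), and another, chr3:26186849-26187349 (39.4%), lay 146 kb from the gene start. Both windows of the reverse kind, chr3:26322413-26322913 at 10.2 kb and chr3:25685100-25685600 at 648 kb, were weaker, at 60.1% and 62.8%. Fisher's exact test gave an adjusted p of 4.32e-05 for each of these 5.

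Nrxn2 had 38 tested windows, of which 5 (13.2%) favoured hippocampus and 6 (15.8%) frontal cortex, against 18.3% and 12.2% of all tested windows. None was present in all 11 libraries of a tissue and 0 of the other, where 4.22% (hippocampus) and 2.34% (frontal cortex) of all tested windows were. The clearest, chr19:6524962-6525462 at 106 kb and chr19:6521569-6522069 at 103 kb, were present in 11 frontal cortex libraries and 1 hippocampus library each (Fisher's exact test, adjusted p = 0.000297). Of its 5 hippocampal windows, 3 lay near the threshold, with a peak in 11 hippocampus and 5 frontal cortex libraries (Fisher's exact test, adjusted p = 0.0406). The hippocampal count of Nrxn2 was 1 with the animal as a block, where that test called 12.8% of all tested windows towards hippocampus. By Fisher's test the count was 2 without the animal LPS 6 h replicate 1 or 4, and 3 without saline replicate 3, LPS 6 h replicate 3, LPS 12 h replicate 3 or LPS 24 h replicate 3. At Nlgn2, 0 of 10 tested windows were called in either direction, and 10 windows are few to set against 18.3% and 12.2% of all windows.

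Per length, the shorter genes carried more peaks. Over the gene and its flanks, Nrxn2 had 30.1 ± 3.1 peaks per 100 kb in hippocampus and 30.8 ± 2.6 in frontal cortex, Nlgn2 27 ± 3.7 and 30.2 ± 5, Nlgn1 18 ± 1.3 and 17.3 ± 1.3, and Nrxn3 16.5 ± 1.4 and 16.5 ± 1.6 (SD, n = 11 libraries per tissue).

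Relative to the number of peaks in the library, peaks at Nrxn2, Nrxn3 and Nlgn2 were fewer in hippocampus than in frontal cortex, and the 95% interval of each difference held that of the typical gene. Nrxn2 had 11.7 to 14 peaks per 100000 in hippocampus (median 13.6) and 13.3 to 15.5 in frontal cortex (median 14.8), with more in frontal cortex in 11 of 11 animals although the ranges overlapped. Nrxn3 had 79.8 to 93.4 (median 88.2) against 85.7 to 102 (median 93.1), higher in frontal cortex in 10 of 11 animals. Nlgn1 had 45.4 to 60.1 (median 54.8) against 49 to 60.6 (median 56.5), also higher in 10 of 11. Nlgn2, the shortest gene, had 2.13 to 3.79 (median 3.17) against 2.54 to 4.23 (median 3.76), higher in 8 of 11. These tallies over animals rest on the scaled values. Before scaling, the mean counts in hippocampus and frontal cortex were 40.45 and 41.45 at Nrxn2 and 269.9 and 270 at Nrxn3. They were 167.4 and 161.4 at Nlgn1 and 9.364 and 10.45 at Nlgn2, where the counts were only 7 to 13 per library.

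On the log2 scale of peaks per 100000, with 0.5 added to each count, the difference of hippocampus minus frontal cortex was -0.14 at Nrxn2 (SE 0.044, limma adjusted p = 0.00792), -0.11 at Nrxn3 (SE 0.03, adjusted p = 0.00435), -0.054 at Nlgn1 (SE 0.036, adjusted p = 0.231) and -0.25 at Nlgn2 (SE 0.093, adjusted p = 0.0292). The same test called 15% of its 30110 genes towards hippocampus and 25.2% towards frontal cortex, and without scaling by library the order turned, with 21.4% towards hippocampus and 12.4% towards frontal cortex. The median of all genes was itself -0.069, and 0.038 when counts were not scaled by library. Relative to that median the 4 genes stood at -0.07, -0.04, 0.01 and -0.18, and the 95% interval of each difference held the median (for Nrxn3 -0.17 to -0.046, for Nlgn2 -0.44 to -0.063). Without scaling no gene of the 4 passed the test, the signs of Nrxn3 (0.00045) and Nlgn1 (0.053) turned, and Nrxn2 stood at -0.037 (limma adjusted p = 0.675). The call at Nlgn2 was also lost within the gene body alone (limma adjusted p = 0.318) and in 5 of 11 fits that left out 1 animal.

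**Figure D3:**
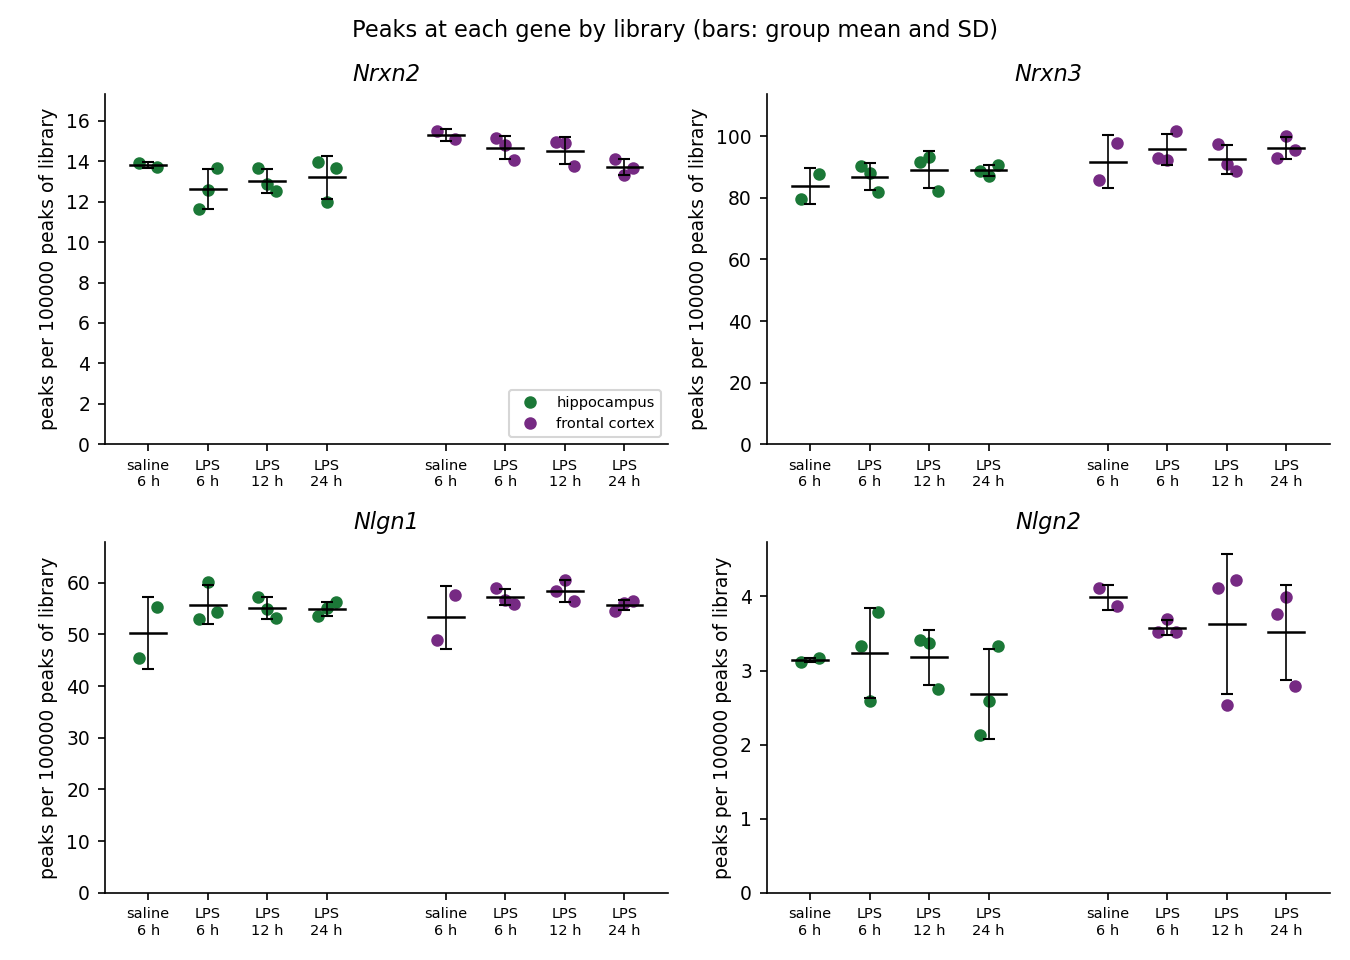
Peaks at each gene per 100000 peaks of the library (vertical axes from 0) in each challenge group (horizontal), hippocampus in green and frontal cortex in purple, 1 point per library with the group mean and SD. Tissue means differ by less than the range of the libraries at every gene. In frontal cortex the 12 h (13.7 to 14.9) and 24 h libraries of Nrxn2 (13.3 to 14.1) lie below both saline libraries (15.5 and 15.1).

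Among strong peaks alone, Nrxn3 had more in frontal cortex, though how the typical gene stood there is not given. Of the 50000 strongest peaks of each library, Nrxn3 held 29 to 38 in hippocampus (median 33) and 37 to 44 in frontal cortex (median 40), and the ranges shared only the values 37 and 38. Hippocampus libraries averaged 33.7 ± 3 such peaks, frontal cortex libraries 40.4 ± 2.3 (SD, n = 11). The difference was -0.26 on the log2 scale (limma adjusted p = 0.000167 over all genes). No median of all genes and no share of genes called is given for this setting. Whether the value sets Nrxn3 apart from other genes therefore cannot be told here. Nlgn1 held 11 to 17 and 13 to 15, Nrxn2 3 to 8 and 5 to 8, and Nlgn2 exactly 5 in every library.

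No change in peak number after LPS was found at these genes. At Nrxn2 in frontal cortex the saline libraries had 15.5 and 15.1 peaks per 100000, the LPS libraries at 6 h 15.2, 14.8 and 14.1, at 12 h 14.9, 14.9 and 13.7, and at 24 h 14.1, 13.3 and 13.7. The libraries of 12 h and of 24 h all lay below both saline libraries, while those at 6 h overlapped them. At Nlgn1 in hippocampus the saline libraries had 45.4 and 55.2, and the 9 LPS libraries 52.9 to 60.1, so that only 1 saline library stood below. At Nlgn2 in hippocampus the saline libraries had 3.12 and 3.17 and the 24 h libraries 2.13, 2.59 and 3.33, which overlap. Differences of group means (LPS minus saline, log2) over both tissues and 3 times were -0.16 to -0.06 at Nrxn2, 0.01 to 0.09 at Nrxn3, 0.07 to 0.15 at Nlgn1 and -0.24 to 0.03 at Nlgn2. A limma F-test over the 4 challenge groups called none of the 30110 genes in hippocampus (0%) or frontal cortex (0%), with 1702 and 2153 at an unadjusted p under 0.05. Adjusted p-values for the 4 genes were 0.935 to 0.981 in hippocampus and 0.781 to 0.946 in frontal cortex. A limma F-test of the within-animal tissue difference over the challenge groups called 0 of 30110 genes as well (0%), with 1781 at an unadjusted p under 0.05 and adjusted p-values of 0.978 to 0.998 for the 4 genes. These fits do not show that the groups were alike.

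Single windows did switch between saline and LPS libraries, at shares close to those over the genome in most comparisons. A window is called gained where all 3 LPS libraries of a time and neither saline library had a peak, and lost for the reverse. With 3 libraries against 2, an exact test cannot go below 0.1, so these are counts without a test, and the 3 times of a tissue share the saline libraries. In hippocampus, of 584 windows present in 2 or more libraries, 8 were gained at 6 h (1.37%, against 0.569% of all windows), 13 at 12 h (2.23% against 1.46%) and 8 at 24 h (1.37% against 1.24%). Lost windows numbered 9 (1.54% against 1.67%), 5 (0.856% against 1.56%) and 8 (1.37% against 1.78%). In frontal cortex, of 582 windows, 3 were gained at 6 h (0.515% against 0.715%), 4 at 12 h (0.687% against 1%) and 18 at 24 h (3.09% against 3.48%). Lost windows numbered 9 (1.55% against 1.27%), 7 (1.2% against 1.31%) and 3 (0.515% against 0.951%). The share furthest above its background was that of hippocampus at 6 h, and under a stricter minimum of 5 for the peaks' -log10 q only 1 window was left.

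Nrxn3, with 587 of the 1033 windows, held 5 of 8, 9 of 13 and 4 of 8 of those gained in hippocampus at 6, 12 and 24 h, and 13 of 18 at 24 h in frontal cortex. The rest of these were in Nlgn1, except 1 in Nrxn2 at 24 h in frontal cortex, and 1 lay near a transcription start: chr3:26332334-26332834, 0.282 kb into Nlgn1, was gained in hippocampus at 6 h. It was weak, with a median rank of 77% over the libraries that had it. The first listed Nlgn1 start, 675 bp away, had a peak in all 11 libraries of each tissue, saline included. In hippocampus the window chr12:89897289-89897789 of Nrxn3 was gained at 6, 12 and 24 h, and the windows chr12:89847066-89847566 and chr12:89946704-89947204 were lost at all 3 times, each set against the same 2 saline libraries. These 3 were weak peaks, with median ranks over all libraries that had them of 70.8% to 76.7%. The 18 windows gained at 24 h in frontal cortex were also present in part at earlier times, where the rule did not look: 11 of 18 in the library LPS 6 h replicate 1, and 4 to 7 of 18 in the other 5 libraries of 6 and 12 h. Over all windows gained there, 63.8% were present in that library and 21.9% to 43.1% in the other 5.

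**Figure D4:**
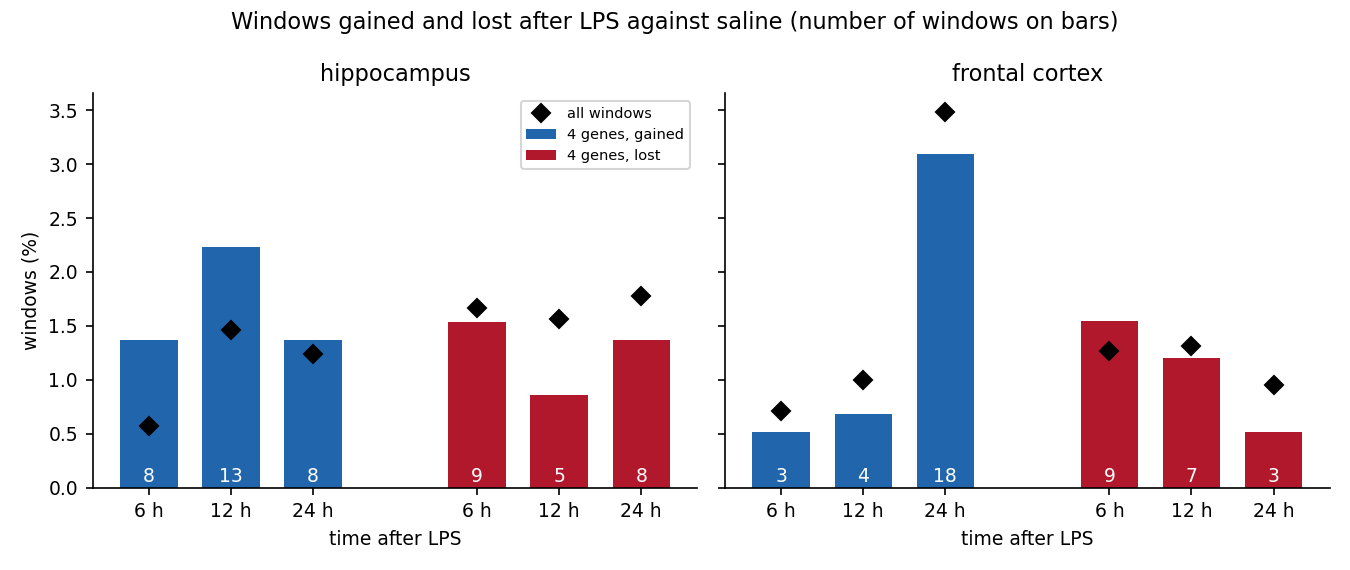
Share of windows (vertical, percent) of the 4 genes that were gained (blue) or lost (red) after LPS by time (horizontal), with the number of windows in white and the share over all windows as diamonds. The highest bar, 18 windows in frontal cortex at 24 h, stands below its diamond at 3.48%.

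The authors' own read-based comparison placed differential regions in 3 of the 4 genes, at 12 h in hippocampus and 24 h in frontal cortex. The authors' deposited tables list regions that csaw called between LPS and saline within a tissue, with a direction and a false discovery rate (FDR) but no fold change, and the 6 comparisons share the saline animals. At the 4 genes the authors' deposited table for hippocampus held 6 regions, all from 12 h, and that for frontal cortex 12, all from 24 h, with 0 at the other times. Over the genome the authors listed 3084 regions for hippocampus at 12 h and 5540 for frontal cortex at 24 h. At the other times they listed 23 (6 h) and 179 (24 h) in hippocampus, and 366 (6 h) and 52 (12 h) in frontal cortex. With so few regions listed, the 0 at those times does not show a timing particular to these genes. Of the 584 hippocampal windows, 4 (0.685%) lay at regions higher at 12 h in the authors' deposited table, against 0.326% of all windows, and 1 (0.171%) at regions lower, against 0.521%. Of the 582 cortical windows, 13 (2.23%) lay at regions higher at 24 h in the authors' deposited table, against 1.47% of all windows. No region was listed at Nlgn2.

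In frontal cortex at 24 h the authors' deposited table listed 4986 regions as higher after LPS and 554 as lower over the genome. At these genes all 12 regions were listed as higher, 8 in Nrxn3, 3 in Nlgn1 and 1 in Nrxn2, which is the main direction of that table. The lowest FDR values in the authors' deposited table were those of chr12:90222201-90222360 (1.47e-05), chr12:89696101-89696260 (2.64e-05), chr12:89831801-89831860 (8.15e-05), chr12:88909701-88909710 (0.000106), chr12:89025701-89025810 (0.000398) and chr12:90185451-90185510 (0.00139), all in Nrxn3 and 10 to 160 bp wide. Peak calls at 5 of these 6 followed one pattern: a peak in neither saline library of frontal cortex, in 2 or 3 of the 24 h libraries, and in the library LPS 6 h replicate 1. Of these 5, chr12:89831801-89831860 and chr12:90185451-90185510 had a peak in 1 further LPS library of the tissue each. The exception, chr12:89696101-89696260, had a peak in 1 saline library too. At 4 of the 6 regions, those at 88909701, 89025701, 89831801 and 90185451, none of the 11 hippocampus libraries had a peak. The remaining 6 regions had a peak somewhere within them in all 22 libraries, so presence over the whole region does not show the listed difference. They are chr19:6506801-6508610 in Nrxn2 (FDR 0.00425 in the authors' deposited table), chr12:90166201-90166460 (0.0108) and chr12:89148851-89149610 (0.049) in Nrxn3, and chr3:25794651-25795110 (0.0233), chr3:26195001-26195460 (0.0281) and chr3:25597351-25597910 (0.0482) in Nlgn1. Parts of a region can still differ in presence. The Nrxn2 region is 1810 bp wide and holds the window chr19:6506812-6507312. In frontal cortex that window had a peak in 0 saline libraries, 1 LPS library at 6 h, 0 at 12 h and 2 at 24 h.

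Peaks at markers of striatal neurons, a neighbouring tissue, were more in some of these libraries. Summed over 6 genes (Drd1, Drd2, Adora2a, Ppp1r1b, Penk, Rgs9), of which 6 had a peak in every library and 0 were without one, they came to 21.8 and 21.3 per 100000 in the saline libraries of frontal cortex. They came to 28.8, 24.3 and 19.8 in the 24 h replicates 1, 3 and 4, to 27.5 in LPS 6 h replicate 1, and to 20.2 to 21.8 in the other 5 libraries of 6 and 12 h. Replicate 4 at 24 h, with the lowest sum in frontal cortex, had a peak at 11 of the 12 regions, as against 12 in replicates 1 and 3 and in LPS 6 h replicate 1, and 6 or 7 in the remaining libraries of the tissue. The part of these markers in the 24 h regions was not tested. The 24 h libraries held 300045 to 322429 peaks, and the saline libraries 316364 and 258617.

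In hippocampus at 12 h the authors' deposited table listed 1211 regions as higher and 1873 as lower over the genome. At these genes it listed 5 as higher and 1 as lower. The higher ones in Nrxn3 were chr12:89021001-89021510 (FDR 0.0243 in the authors' deposited table), chr12:89968801-89968960 (0.0342) and chr12:89971301-89971410 (0.0412). At the last, a peak was called in 3 of 3 hippocampus libraries at 12 h, in neither saline library and in 10 of 11 frontal cortex libraries. The region lower at 12 h was chr12:89134951-89135210 (0.0426), with a peak in 10 of 11 hippocampus libraries. In Nlgn1 they were chr3:25448951-25449110 (FDR 0.0175 in the authors' deposited table), where 0 of 11 hippocampus libraries had a called peak, and chr3:25597351-25597910 (0.0491), which is also listed in frontal cortex at 24 h and was open in all 22 libraries. None of these 6 reached an FDR of 0.01 in the authors' deposited table.

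**Figure D5:**
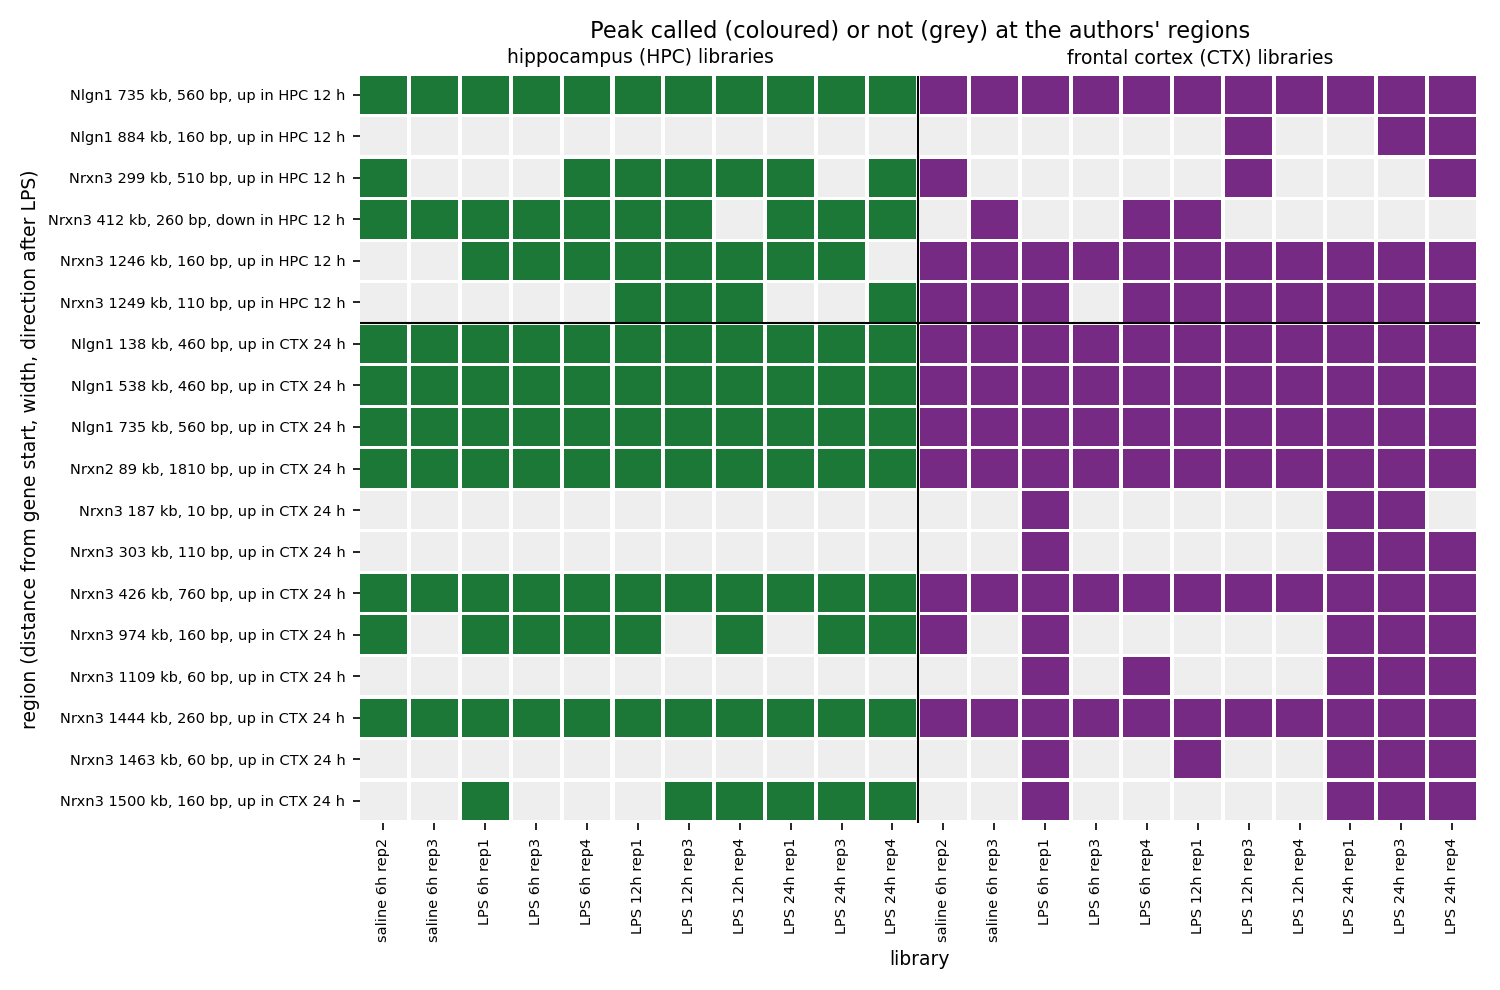
Peak called (coloured) or not (grey) in each library (columns, hippocampus green and frontal cortex purple) at the 18 listings of the authors' deposited tables in these genes (rows, with distance from the gene start, width and direction). In the lower block the 6 Nrxn3 regions of 10 to 160 bp are coloured in LPS 6 h replicate 1 and in 2 (1 region) or 3 of the 24 h libraries of frontal cortex, while 6 rows are coloured in all 22 libraries.

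The partners of neurexins and neuroligins were read in the same way. Of 25 partner genes, 4 had more peaks in hippocampus and 7 more in frontal cortex (limma, adjusted over all genes), which is near the 15% and 25.2% of all genes, with a median of -0.07 against -0.069 over all genes. Without scaling the counts turned to 4 and 2, against 21.4% and 12.4% of all genes, and the median to 0.04. C1ql2, a secreted ligand of Nrxn3 at mossy fibre synapses, had 1.86 ± 0.25 peaks per 100000 in hippocampus and 0.911 ± 0.29 in frontal cortex (log2 difference 0.94, adjusted p = 8.17e-07), and Lrrtm4, a postsynaptic neurexin ligand of dentate granule cells, 29.9 ± 3.1 and 25.3 ± 2.8 (0.24, adjusted p = 0.000834). Cbln4, a secreted bridge from neurexin to its receptors, went the other way, with 1.34 ± 0.37 and 2.44 ± 0.62 (-0.81, adjusted p = 1.27e-05), as did Adgrl2, a latrophilin, with 9.57 ± 0.75 and 13.9 ± 0.76 (-0.53, adjusted p = 6.09e-11). Means are per tissue with SD over 11 libraries, and limma was used for each test.

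Of 19 cytoplasmic scaffold genes, 0 had more peaks in hippocampus and 12 more in frontal cortex (limma, median log2 difference -0.15), against 15% and 25.2% of all genes, and without scaling 3 and 5 (median -0.04), against 21.4% and 12.4%. Sytl2 (log2 difference -1.10), Dlg1 (-0.36) and Cask, the kinase-like scaffold that binds the neurexin tail (-0.30), were among the 12. Of 25 genes for other trans-synaptic organisers, 24 were tested, of which 2 had more peaks in hippocampus and 11 in frontal cortex (median -0.12), and without scaling 3 and 5 (median -0.01), to be read against the same shares of all genes. Ptprd, a receptor phosphatase of the presynaptic side, held 74.4 ± 6 peaks per 100000 in hippocampus and 103 ± 6.1 in frontal cortex (-0.48, limma adjusted p = 2.62e-12), and Ntng1, which binds Lrrc4c, 20.1 ± 1.4 and 15.8 ± 1.2 (0.34, adjusted p = 1.8e-07). The named genes of the 3 lists passed the limma test in the same direction without scaling, with log2 differences such as 1.05 for C1ql2, -0.99 for Sytl2 and -0.19 for Cask. In limma's F-tests over the challenge groups 0 genes of the 3 lists passed in either tissue after adjustment. The unadjusted p of these F-tests was under 0.05 in hippocampus for 6 of 25 partners, 0 of 19 scaffolds and 2 of 24 other organisers. In frontal cortex it was so for 5, 2 and 5 of them, against 5.65% and 7.15% of all genes in these tissues. As shares, all but the scaffolds in hippocampus lay above those of all genes, which was not tested.

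Across the 22 libraries, the genes whose log2 peak number was most like that of a member were Cd6, Lrrc75a and Sema4f for Nrxn2 (Pearson r of 0.82, 0.81 and 0.81), Gm33811, Lrrc4c and Fbxl17 for Nrxn3 (0.86, 0.84 and 0.80), and Dlg2, Cytip and Rasal2 for Nlgn1 (0.78, 0.78 and 0.77). They were taken from 9068 to 9071 genes with a mean of 10 or more peaks, the libraries differ in tissue and in number of peaks, and no test was made. Lrrc4c and Dlg2 belong to the lists above. Nlgn2 had too few peaks for such a comparison.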

How the data were processed

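Peaks were deposited per library, so each library is a replicate and comes from 1 animal. Each deposited summit was counted as a peak, and 1 interval can hold more than 1 summit. In hippocampus saline 6 h replicate 2, for example, 352369 peaks lay in 307140 distinct intervals. Per the submitters' processing notes, the genome build was GRCm38 and the tools were MACS2 2.2.7.1, Bowtie2 2.4.4, Trim Galore 0.6.7 and FastQC 0.11.9. A shift of reads for the transposase cut is named in none of the sources used here. The deposited peaks carry a score, a fold enrichment ratio and -log10 of p and q, and only their order within a library was used, to place windows and to rank or filter peaks. The csaw tables deposited by the authors give regions with a direction and a score taken as -10 log10 of the FDR, with no fold change.

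Windows of about 0.5 kb were placed without overlap around summits, strongest peaks first, and counted as present where a peak overlapped by at least 50% of the shorter. Peak numbers were analysed as log2 of peaks per 100000 of the library (0.5 added) with limma 3.58.1 over 30110 genes with a mean of 3 or more peaks. P-values were adjusted by Benjamini-Hochberg over all features tested, and the tests were tested on simulated data. Tissues are paired by animal, as the labels name the same animal for both, and the correlation of deviations within animals was -0.03 to 0.24 (median 0.06). Fisher's tests and the main limma fits of tissue did not use this pairing and took the libraries as independent. The tests with the animal as a block and those of the within-animal difference used it. In limma the spread of a gene also draws on that of other genes. All p-values rest on these 11 animals. Up to 5 called windows per gene and direction with the lowest p, all deposited regions, and the 3 genes most alike were named by rule. Of the marker lists, 1 cortical and 1 striatal gene are not reported here and were left out of the sums. Members, lists and rules were chosen with earlier results of these data known, and the best-ranked windows were picked after the values were seen. Python 3.11.15, numpy 2.4.6, scipy 1.17.1 and pandas 2.3.3 were used.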

Additional observations from a re-analysis of the deposited data

How the results depend on the processing

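Peak lists carry no depth, and with groups of 2 and 3 libraries an exact test of a window's presence between saline and LPS cannot go below 0.1. With the animal as replicate block, windows called towards hippocampus fell to 1 at Nrxn2 and 30 at Nrxn3, and those towards frontal cortex to 28 at Nrxn3. They numbered 26 and 18 at Nlgn1, 5 towards frontal cortex at Nrxn2 and 0 at Nlgn2, and the block changed no call on peak numbers. Over all windows the block called 41775 towards hippocampus and 26630 towards frontal cortex. With only peaks of -log10 q of 5 or more, Nrxn2 had 3 hippocampal windows. Over all windows this setting called 42249 towards hippocampus and 32653 towards frontal cortex, against 59876 and 39874 in the main test. Gained and lost windows then numbered 1 and 3 at 6 h, 5 and 2 at 12 h and 4 and 2 at 24 h in hippocampus. In frontal cortex they numbered 2 and 4 at 6 h, 2 and 4 at 12 h and 18 and 1 at 24 h. The 18 gained at 24 h equal the count of the main rule. No share over all windows is given for gained and lost windows in this setting. An overlap of 1 bp gave 6 windows lost in frontal cortex at 24 h. With the 50000 strongest peaks of each library, Nrxn2 had 1 window towards hippocampus and 1 towards frontal cortex, Nrxn3 9 and 14, and Nlgn1 8 and 7. Over all windows the counts fell as well, to 13699 and 13839, so the drop is not particular to these genes. At an FDR of 0.01 the authors' deposited tables kept 0 regions in hippocampus at 12 h and 7 in frontal cortex at 24 h. Without the animals numbered 1 in each LPS group, an alternative chosen after seeing the data, hippocampal windows numbered 1 at Nrxn2, 31 at Nrxn3 and 25 at Nlgn1. Over all windows the counts fell as well, to 43405 towards hippocampus and 27738 towards frontal cortex. The log2 differences of Nrxn2 (-0.13, limma adjusted p = 0.0504) and Nlgn2 (-0.21, 0.147) no longer passed without these animals.

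The log2 tissue difference of Nrxn2 was -0.16 among the 50000 strongest peaks (limma adjusted p = 0.372) and -0.037 without scaling (0.675). It was larger, at -0.29, with each interval counted once (limma adjusted p = 1.16e-06), and -0.21 in the gene body alone (0.000341). No median of all genes is given for these 2 settings. The difference of Nrxn3 was 0.00045 without scaling (0.996). That of Nlgn1 was 0.016 among the strongest peaks (0.981) and 0.053 without scaling (0.437). That of Nlgn2 was -0.13 with the stricter q (0.26), -0.15 without scaling (0.245), -0.26 in the gene body alone (0.318) and 0 among the strongest peaks, where every library had 5. Scaling alone moved the median of all genes by over 0.1, and the cause of the other changes was not tested. The F-tests over challenge groups gave 216 further values, adjusted p = 0.529 to 1, with 0 under 0.05.

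Leaving out 1 animal at a time, hippocampal windows ranged from 2 to 5 at Nrxn2, 42 to 50 at Nrxn3 and 33 to 38 at Nlgn1, and cortical ones from 5 to 6, 36 to 41 and 22 to 25. Over all windows they ranged from 52109 to 56139 and from 33911 to 37025. The log2 difference ranged from -0.16 to -0.12 at Nrxn2, -0.12 to -0.086 at Nrxn3, -0.068 to -0.044 at Nlgn1 and -0.31 to -0.20 at Nlgn2, whose call was lost without the animals saline replicate 2, LPS 6 h replicate 3, LPS 12 h replicate 4, LPS 24 h replicate 1 or LPS 24 h replicate 3. Leaving out a library loosens the rule for gained and lost windows. Gained ones then ranged from 12 to 22, 18 to 34 and 10 to 33 at 6, 12 and 24 h in hippocampus and 7 to 19, 9 to 18 and 31 to 46 in frontal cortex, and lost ones from 12 to 44, 6 to 27 and 11 to 27 and from 11 to 35, 9 to 31 and 6 to 20. Replicate numbers do not pair animals of different groups (median correlation 0.01, 4 of 24 over 0.1), and the F-tests with the replicate number as replicate block are among the 216 values.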
